A study of Mus musculus with 12 samples.

Results

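The expression of DNA damage signalling and DNA repair genes was examined in hematopoietic stem cells (HSCs) of WT and Pon2-/- mice. The set held 49 of the 49585 genes counted, among them the 5 RecQ helicases of the mouse. The genes were listed by symbol and by pathway, with no threshold on measured values, and all of them were found in the counts. They were sorted into 8 pathways: RecQ helicases (5 genes), damage signalling (9 genes), homologous recombination (11 genes), end joining (5 genes), base excision and strand-break repair (9 genes), the Fanconi anaemia pathway (4 genes), mismatch repair (2 genes) and nucleotide excision repair (4 genes).

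RNA-seq had been performed on sorted bone marrow cells of 6 WT and 6 Pon2-/- mice, all of the strain background C57BL/6J and aged 10 to 14 weeks. The sex of the mice is not given in the sources used here. In Pon2-/- mice, a gene trap vector with β-geo, flanked by loxP sites, sits in intron 2 of Pon2, which encodes paraoxonase 2, an enzyme with antioxidative function. The trap lowers Pon2 without deleting the gene, and the WT mice were bought from Charles River. The WT mice were thus not littermates of the Pon2-/- mice, and genotype and colony of origin cannot be told apart. The cells were Lin-, Sca1+, ckit+, CD135- and CD150+. They are labelled as long-term HSCs, and the study's methods describe them as a mixture of long-term HSCs and MPP2 cells. Per mouse, 8 wells of 10 cells each were sorted, so that a sample stands for about 80 cells of 1 mouse, and the 8 wells of a mouse were given as 1 set of counts. In such bulk samples, fewer cells that express a gene and less RNA per cell cannot be told apart.

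DNA repair genes encode enzymes that recognise, excise and rejoin damaged DNA, and kinases and adaptor proteins that halt the cell cycle until the damage is removed. RecQ helicases unwind DNA at stalled replication forks and recombination intermediates, and inherited loss of single members causes syndromes of genome instability or early ageing in man. HSCs are long-lived and mostly quiescent, and mice deficient in Atm, in Fanconi genes or in end joining are known to lose stem cell function with age or under stress.

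WT libraries held 12967791 to 24228280 counts and Pon2-/- libraries 14671353 to 23122382 counts. Levels are given as CPM, the counts of a gene per 1000000 counts of the library as scaled by the TMM method of edgeR. Where a sample held no count of a gene, the count of 0 allows up to 3 counts, or 0.121 to 0.235 CPM depending on the library, which covers counting error only. Pon2 was at 112.7 ± 49.3 CPM in WT mice and 25.7 ± 12.2 CPM in Pon2-/- HSCs (mean ± SD, n = 6 per genotype), without overlap between the genotypes (two-sided exact permutation test, p = 0.00216, the smallest value this design allows). All 13 HSC marker genes were detected in every sample, as was Flt3 (4.59 to 65.0 CPM), which encodes CD135, the antigen sorted against. Of the markers of other cell types, the summed level of 10 B lineage genes ranged from 30.3 to 396 CPM in WT mice and from 58.8 to 811 CPM in Pon2-/- samples, and that of 10 myeloid genes from 878 to 9749 CPM and from 830.5 to 14860.5 CPM. The erythroid marker Car1 and the T lineage markers Cd3e, Cd5, Cd8a, Cd8b1 and Trac had no count in any sample.

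Most repair genes were expressed in HSCs of every mouse. Of the 49 genes, 40 (81.6%) had at least 1 count in all 12 samples, compared with 36.4% of the 21734 protein-coding genes and with 50.4% of those that had a count in any sample. Between 44 and 48 of the 49 genes were detected in a sample. The counts on all 49 genes together made up 0.286% to 0.377% of the counts of WT samples and 0.291% to 0.419% of those of Pon2-/- samples, so that the genotypes overlapped. Damage signalling and mismatch repair genes were detected in all samples. By pairs of gene and sample, detection was lowest for end joining (83.3%) and for the Fanconi anaemia pathway (87.5%), of which 1 of 4 genes (Fancc) was detected in all samples.

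**Figure D1:**
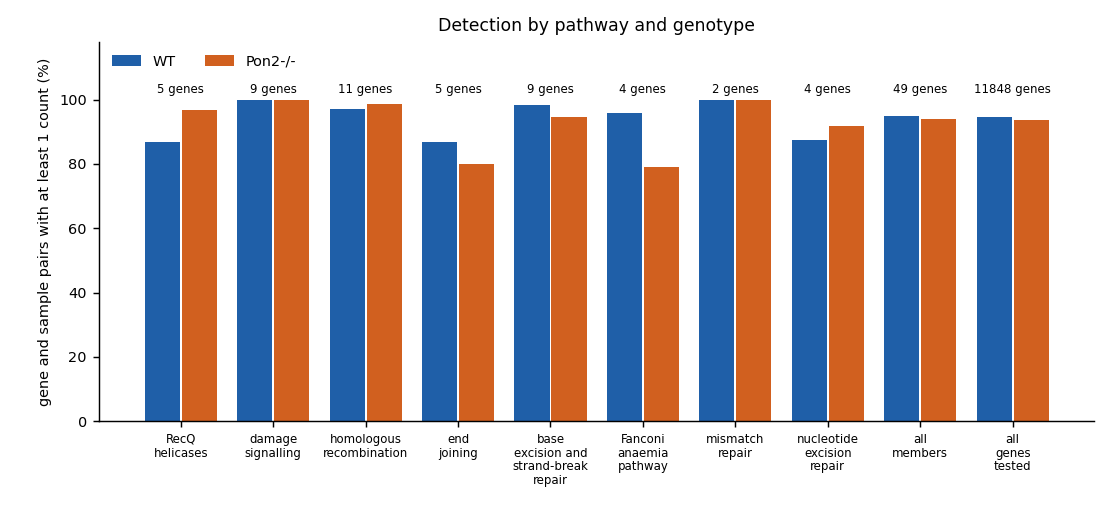
Percentage of gene and sample pairs with at least 1 count (y axis) for the 8 pathways, for all 49 repair genes and for all genes that passed the filter on low counts (x axis), with a bar for WT and a bar for Pon2-/-. Over all repair genes, 94.9% of the pairs were detected in WT and 93.9% in Pon2-/-, while the Fanconi anaemia pathway had 95.8% (23 of 24 pairs) and 79.2% (19 of 24 pairs).

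The genotype difference in the detection of the Fanconi anaemia genes was small in number of pairs and was not tested. It came from Fanci, which was detected in 5 WT and 3 Pon2-/- samples, and from Fanca and Fancd2, each detected in 6 WT and 5 Pon2-/- samples. For the RecQ helicases, 26 of 30 pairs were detected in WT and 29 of 30 in Pon2-/- HSCs, and all pairs without a count belonged to Recql4.

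Levels differed widely between the repair genes. Genes were compared per length, as CPM per kilobase of exon that is not shared with another gene, in the mean of all 12 samples. The median gene had 8.15 CPM per kb, and the highest levels were those of Trp53 (137.8 CPM per kb) and Apex1 (126.2 CPM per kb). Trp53 encodes the transcription factor p53, and Apex1 the endonuclease that cuts DNA at sites that have lost their base. Lig1, the ligase that joins DNA during replication and excision repair, followed with 58.6 CPM per kb, then Parp2 with 42.9, Xrcc6 with 41.8, Nbn with 39.4 and Parp1 with 36.5 CPM per kb. By pathway, the median gene of nucleotide excision repair (15.96 CPM per kb) and of base excision and strand-break repair (13.9 CPM per kb) lay highest, and that of the Fanconi anaemia pathway (1.92 CPM per kb) lowest. The lowest of all were Lig4 with 0.0274 and Recql4 with 0.553 CPM per kb.

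**Figure D2:**
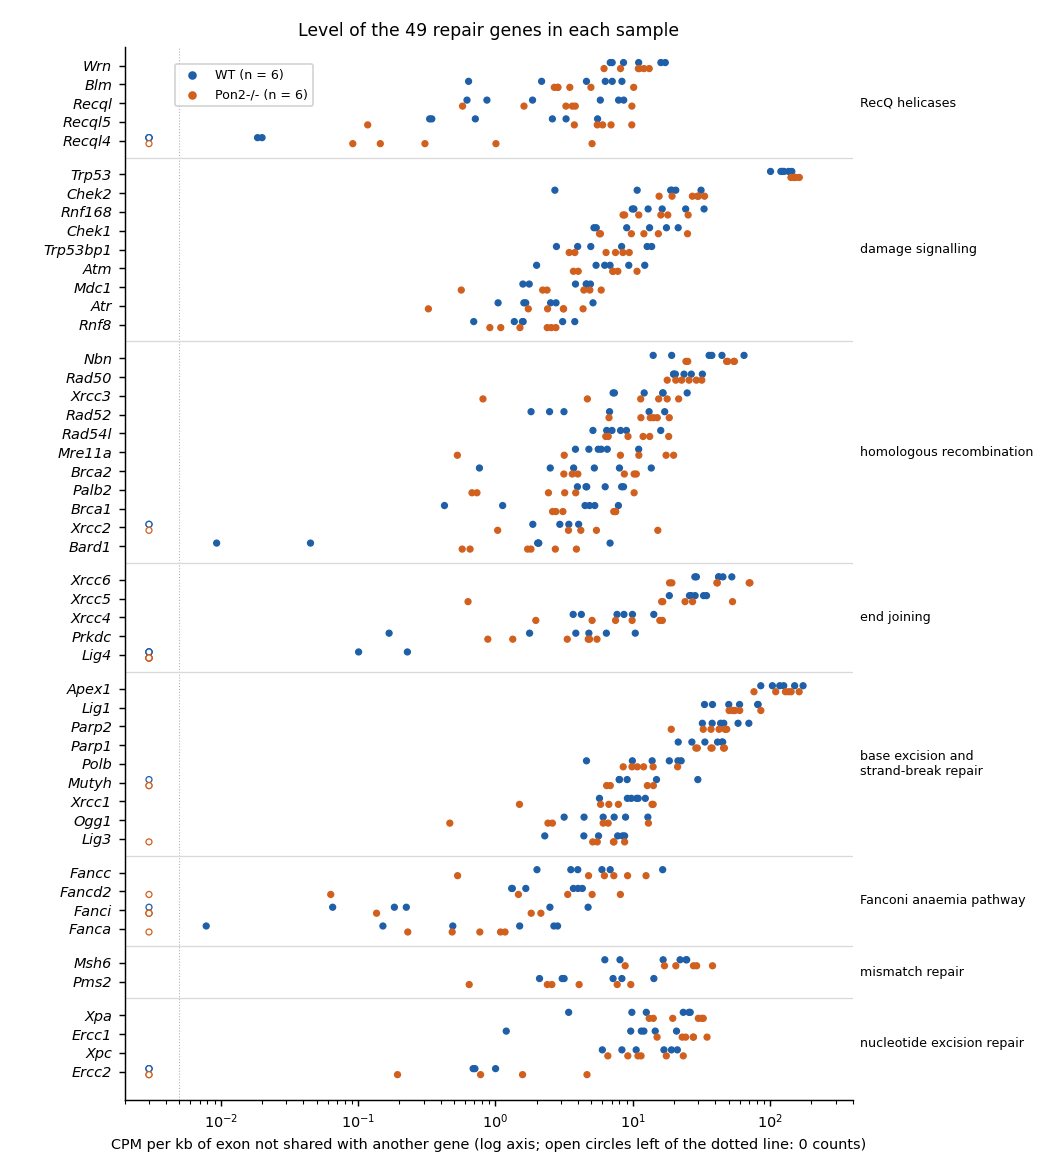
Level of each of the 49 repair genes in CPM per kb of unshared exon (x axis, log scale) in the 6 WT and 6 Pon2-/- samples (points), sorted by pathway and level. Open circles left of the dotted line are samples without a count. For nearly all genes the points of both genotypes lie over each other, Trp53 and Apex1 lie farthest right, and Recql4 and Lig4 farthest left.

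Differences between WT and Pon2-/- HSCs were tested with the quasi-likelihood test of edgeR over all 11848 genes that passed a filter on low counts, and p-values were adjusted over these genes (Benjamini-Hochberg). Of the repair genes, 47 passed this filter, while Recql4 and Lig4 did not. None of the 47 genes passed an FDR of 0.05 and a fold change of 2, compared with 24 (0.203%) of all genes tested. In the same fit, 2 of the 47 had an unadjusted p below 0.05 (3.13% of all genes tested), namely Trp53 and Ercc1, both higher in Pon2-/- HSCs (1.7% of all genes tested had such a p and were higher). The adjusted p of both was 1.0. DESeq2, which tested 16998 genes including all 49, gave 3 genes with an unadjusted p below 0.05 and called 1 of them, Recql4, compared with 1.79% of the genes it tested. Of the 47 genes, 23 were higher and 24 lower in Pon2-/- HSCs, and their median log2 fold change was -0.00 compared with -0.01 for all genes tested. Their median absolute log2 fold change was 0.25 (all genes tested: 0.32), with a median standard error of 0.53.

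**Figure D3:**
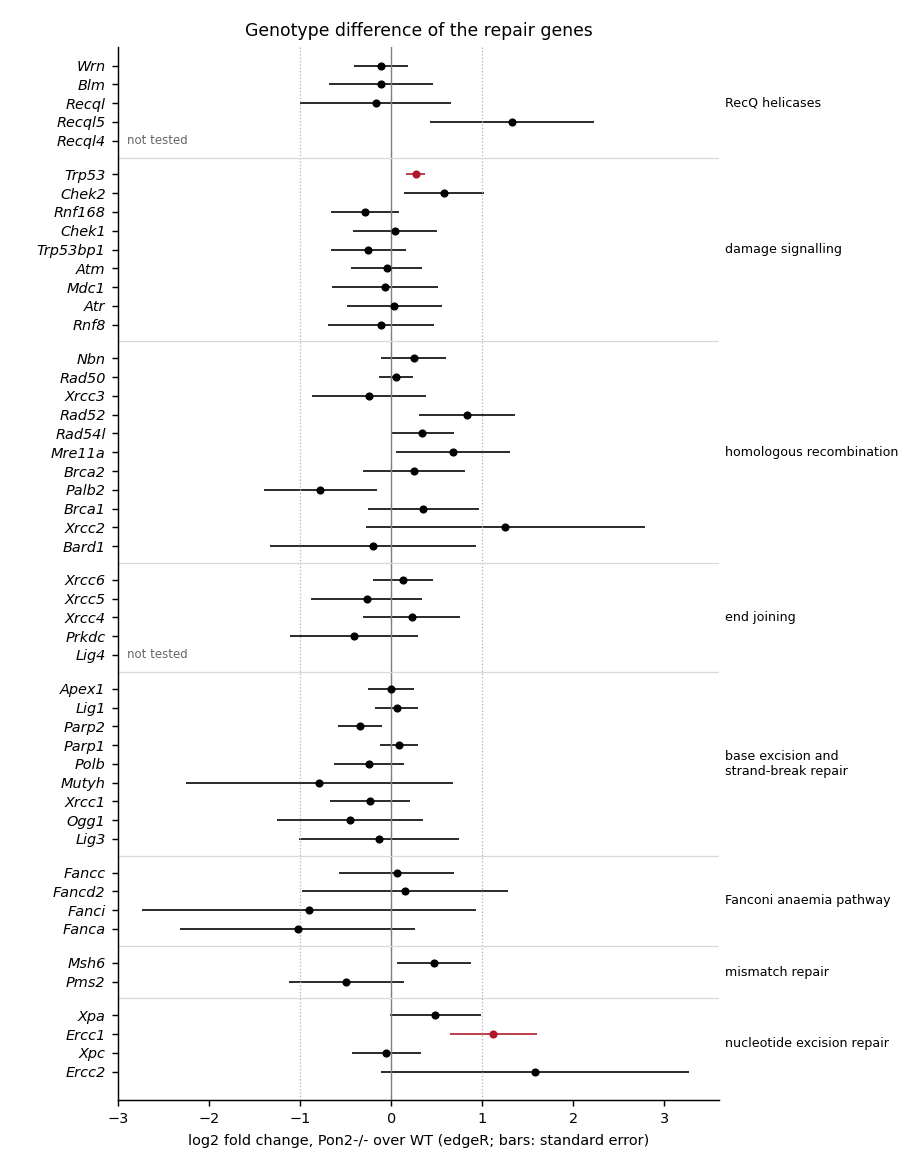
Log2 fold change of Pon2-/- over WT for the 47 repair genes tested with edgeR (points, with the standard error as bars), sorted by pathway and level. The dotted lines mark a fold change of 2. The bars of most genes cross 0, and the only points in red, Trp53 (0.27) and Ercc1 (1.12), had an unadjusted p below 0.05.

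Of the RecQ helicases, Wrn and Blm varied least between the mice. Wrn, which has an exonuclease domain beside its helicase and whose loss causes Werner syndrome, ranged from 52.1 to 131 CPM in WT samples (median 74.4) and from 46.9 to 100.1 CPM in Pon2-/- samples (median 84.1). The highest sample of all was thus only 2.79-fold above the lowest, and the genotypes overlapped. Its log2 fold change was -0.11 (standard error 0.29, edgeR adjusted p = 1.0). Blm, the helicase that dissolves double Holliday junctions together with topoisomerase III alpha, ranged from 5.59 to 73.2 CPM in WT samples (median 47.9) and from 23.5 to 89.1 CPM in Pon2-/- samples (median 27.8). The log2 fold change of Blm was -0.11 with a standard error of 0.57.

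Recql and Recql5 varied widely between mice of the same genotype. Recql, the shortest of the RecQ helicases, had 970, 716, 103, 38, 123 and 453 counts in WT replicates 1 to 6 and 291, 64, 136, 681, 395 and 260 counts in Pon2-/- replicates 1 to 6. Both genotypes thus held samples near 3 CPM and above 40 CPM. The log2 fold change of Recql was -0.17 (standard error 0.83). Of the exon bases of Recql, 37.7% overlap Pyroxd1 on the other strand, and reads on these bases cannot be assigned without strand information. Pyroxd1 itself had a log2 fold change of 0.01.

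Recql5, which binds RNA polymerase II and limits recombination, had 415, 712, 120, 283, 31 and 38 counts in WT and 788, 590, 14, 590, 808 and 1110 counts in Pon2-/- replicates 1 to 6. In CPM, 3 Pon2-/- samples lay above all WT samples and 1 lay below all of them. Its log2 fold change of 1.33 (standard error 0.90) was the largest of the tested RecQ helicases and did not pass the test (edgeR adjusted p = 1.0 and exact permutation p = 0.297). Smim5 and Smim6, small genes that overlap the position of Recql5 on the other strand, share none of its exon bases. Smim6 was lower in all Pon2-/- samples (60.2 ± 15.4 CPM in WT, 11.6 ± 6.38 CPM in Pon2-/-, mean ± SD, n = 6 per genotype, exact permutation test, p = 0.00216), with an edgeR adjusted p of 1.0.

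Recql4, a helicase that takes part in the start of DNA replication and is mutated in Rothmund-Thomson syndrome, was at the limit of detection in WT HSCs. WT replicates 1 to 6 had 0, 0, 0, 1, 1 and 0 counts, and Pon2-/- replicates 1 to 6 had 6, 0, 10, 57, 428 and 20 counts. Thus 5 of 6 Pon2-/- samples lay above every WT sample, and 1 had no count. The difference of mean log2 CPM was 3.26 (two-sided exact permutation test, p = 0.0152), and 5.87% of all genes tested had a p below 0.05 in this test. The ratio of the summed counts, 521 against 2, was 260.4 with a 95% counting interval of 71.7 to 2156. This interval and those below cover counting error of the pooled reads only, and not the spread between mice. With DESeq2, the adjusted p was 0.00116. In contrast, edgeR without the filter on low counts tested Recql4 and did not call it (adjusted p = 0.281, at a log2 fold change of 7.18). The study names Recql4 from these same samples, so that the difference seen here is no independent evidence of its direction. Most of the counts came from Pon2-/- replicate 5. Leaving it out gave a ratio of 57.8 (95% counting interval 15.6 to 484.6) and an exact permutation p of 0.0173. Pon2-/- replicates 5 and 4, which had the most Recql4 counts, also had the highest summed levels of B lineage markers (811 and 480.2 CPM), and without both of them the ratio was 26.7 (95% counting interval 6.88 to 229) and the exact permutation p 0.0333. Of the 10 B lineage markers, 7 had a higher mean CPM in Pon2-/- HSCs and 3 (Ebf1, Vpreb3 and Rag1) a lower one. Igll1 had no count in any WT sample and was detected in 2 Pon2-/- samples. WT replicates 2 and 5 had 396 and 293 CPM of B lineage markers, with 0 and 1 Recql4 counts. Pon2-/- replicate 6 had 58.8 CPM of these markers and 20 Recql4 counts. Pon2-/- replicate 5 also had the highest summed level of proliferation genes (5213 CPM) and the highest level of Blm. WT replicate 1 came next in proliferation genes (4845 CPM) and had 0 Recql4 counts. Pon2-/- replicate 4, with 57 Recql4 counts, had the lowest sum of the Pon2-/- samples (3386 CPM). The part of B lineage or cycling cells in the difference was not tested. Of the exon bases of Recql4, 9.72% overlap Mfsd3 on the other strand, and reads on these bases cannot be assigned without strand information. Mfsd3 had 24.6 ± 12.5 CPM in WT mice and 18.5 ± 12.7 CPM in Pon2-/- HSCs (mean ± SD, n = 6 per genotype).

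**Figure D4:**
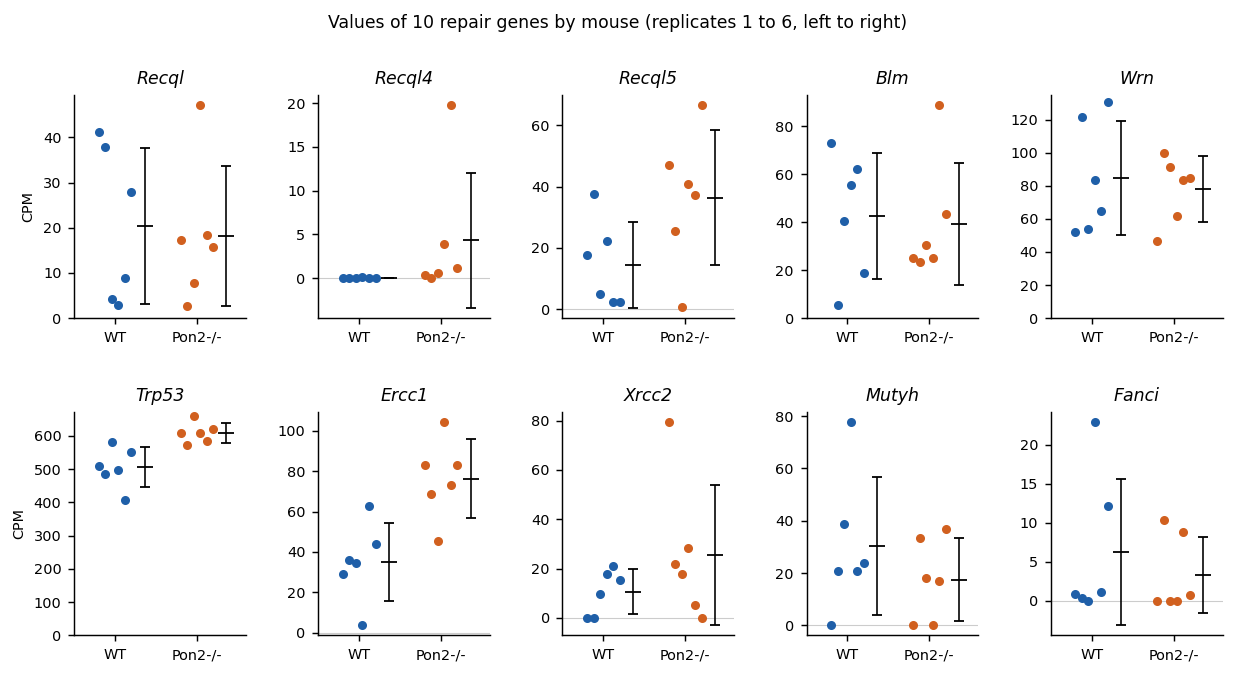
CPM (y axes, linear) of the 5 RecQ helicases and of Trp53, Ercc1, Xrcc2, Mutyh and Fanci in each mouse (points, replicates 1 to 6 from left to right), with the mean and SD of each genotype as a dash with bars. Recql4 lies at or near 0 in all 6 WT samples and reaches 19.8 CPM in Pon2-/- replicate 5, while the other 4 RecQ helicases overlap between the genotypes.

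None of the known partners of the RecQ helicases passed the test between the genotypes. Top3a, Rmi1 and Rmi2 form a complex with Blm, the Rpa genes encode the protein that coats single-stranded DNA, Dna2 and Exo1 encode nucleases that trim DNA ends with Blm or Wrn, and Mcm10 binds Recql4. All 9 were tested, none had an edgeR p below 0.05 or was called with DESeq2, and their median log2 fold change was -0.13. Exo1 had 64.3 ± 26.9 CPM in WT mice and 48.5 ± 47.5 CPM in Pon2-/- HSCs, and Mcm10 had 37.7 ± 17.7 and 38.3 ± 18.1 CPM (mean ± SD, n = 6 per genotype).

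In damage signalling, all 9 genes were detected in every sample, and Trp53 had the smallest edgeR p of the repair genes. Trp53 had 509.8, 484.6, 582, 496, 407 and 551.6 CPM in WT replicates 1 to 6 and 608, 573.5, 659.6, 610.4, 583.9 and 620.6 CPM in Pon2-/- replicates 1 to 6. All Pon2-/- samples but replicate 2 lay above every WT sample. The mean was 505 ± 60.2 CPM in WT mice and 609 ± 30.3 CPM in Pon2-/- HSCs (mean ± SD, n = 6 per genotype). The log2 fold change was 0.27 (standard error 0.105, edgeR p = 0.0224, adjusted p = 1.0, two-sided exact permutation p = 0.00433). With DESeq2 the adjusted p was 0.0653, and 0.0323 without its Cook cutoff. Trp53 was also the least variable of the 49 genes, with a coefficient of variation of 12.7% over all 12 samples.

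Genes that p53 is known to activate were compared next. Of 25 such genes, 17 were tested with edgeR, none had a p below 0.05 or was called with DESeq2, and their median log2 fold change was -0.08. Their summed level ranged from 962 to 1173 CPM in WT mice and from 774 to 1143 CPM in Pon2-/- samples, of which 4 lay below every WT sample (medians 1071 and 839.6 CPM). Mdm2, the ubiquitin ligase that degrades p53, had 84.2 ± 34.1 CPM in WT mice and 86.4 ± 51.8 CPM in Pon2-/- HSCs. Cdkn1a, the cell cycle inhibitor p21, had 18.5 ± 24.2 and 15.0 ± 12.97 CPM (mean ± SD, n = 6 per genotype). Of the 17 tested, only Plk2 and Rps27l had an exact permutation p below 0.05 (5.87% of all genes tested), and both were lower in Pon2-/- HSCs. Plk2 had 61.3 ± 40.2 CPM in WT mice and 14.4 ± 18.2 CPM in Pon2-/- HSCs (p = 0.0216, exact permutation test), and Rps27l had 313 ± 35.7 and 251.6 ± 61.0 CPM (p = 0.0455, exact permutation test). These 2 genes had the largest falls in mean CPM of the 25 and weigh most on the summed level. By mean CPM, 9 of the 25 were higher and 16 lower in Pon2-/- HSCs.

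The kinases at the head of the pathway did not pass the test, and their standard errors were wide. Atm, the kinase activated by double-strand breaks, had a median of 67.6 CPM in WT (20.6 to 126) and 74.1 CPM in Pon2-/- samples (38.2 to 111), and a log2 fold change of -0.05 (standard error 0.39). Atr, the kinase activated at stalled forks, had a log2 fold change of 0.03 (standard error 0.52), with Pon2-/- replicate 1 at 7.23 CPM and all other samples above 20 CPM. Chek1, the kinase downstream of Atr, had a log2 fold change of 0.04, and Chek2, the kinase downstream of Atm, one of 0.58 (standard error 0.44, exact permutation p = 0.11). WT replicate 5 had 8.13 CPM of Chek2, whereas the other WT samples had 32.3 to 94.3 CPM and the Pon2-/- samples 46.7 to 99.9 CPM. The adaptor proteins and ubiquitin ligases that assemble at broken DNA, Trp53bp1, Mdc1, Rnf8 and Rnf168, had log2 fold changes between -0.29 and -0.07. Per length, Rnf8 had the lowest level of the pathway, with 2.02 ± 1.17 CPM per kb in WT and 1.87 ± 0.796 CPM per kb in Pon2-/- HSCs.

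The promoter sequences of the genes were compared with those of other expressed genes. RefSeq windows from 250 bases before to 50 bases after the transcription start (build GRCm38.p6) were at hand for 40 of the 49 genes, and not for Polb, Xpc, Fancd2, Xrcc2, Recql4, Wrn, Rad50, Prkdc and Nbn. Both strands were searched for TTTCCCGC or TTTGGCGC, forms of the site bound by E2F factors at genes of the S phase, and 6 of the 40 windows (15.0%) held one, compared with 3.39% of the windows of 8473 tested protein-coding genes. These were the windows of Bard1, Brca2, Chek2, Mdc1, Msh6 and Xrcc6. The CCAAT box occurred in 62.5% of the windows (all genes: 39.4%), GGGCGG, the GC box, in 72.5% (65.6%), and TGACNNNGC, the core of the antioxidant response element, with N for any base, in 17.5% (15.0%). The median GC content was 59.2% (61.0%). A match is a match of letters and no evidence of binding. Printed here are the bases before the start of Trp53 that lie in no annotated exon (chr11:69580256-69580358, plus strand), since Trp53 had the smallest edgeR p of the repair genes, and the 250 bases before Brca2 (chr5:150522371-150522620, plus strand) and Mdc1 (chr17:35841248-35841497, plus strand) as 2 of the windows with the E2F letters. Capitals mark matches to the 4 motifs on either strand, which do not overlap each other in these sequences. In the printed bases of Trp53 the match is the reverse of CCAAT. The searched window of Trp53 also held TGACNNNGC, which is not among the printed bases. In Brca2 the matches are the reverse of TTTCCCGC and the reverse of TGACNNNGC, and in Mdc1 they are TGACNNNGC, CCAAT and TTTCCCGC.
Trp53: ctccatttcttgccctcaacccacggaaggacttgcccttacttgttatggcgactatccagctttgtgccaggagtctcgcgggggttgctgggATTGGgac
Brca2: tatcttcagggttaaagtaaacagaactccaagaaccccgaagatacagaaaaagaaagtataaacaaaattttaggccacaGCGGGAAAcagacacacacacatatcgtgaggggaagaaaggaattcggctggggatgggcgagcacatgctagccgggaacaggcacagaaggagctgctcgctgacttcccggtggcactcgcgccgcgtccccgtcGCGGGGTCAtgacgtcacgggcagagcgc
Mdc1: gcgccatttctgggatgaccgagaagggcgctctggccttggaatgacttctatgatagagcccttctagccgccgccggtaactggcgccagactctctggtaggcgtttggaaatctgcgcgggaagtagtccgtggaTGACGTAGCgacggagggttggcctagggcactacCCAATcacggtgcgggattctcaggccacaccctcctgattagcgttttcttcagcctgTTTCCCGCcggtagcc

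In homologous recombination, which copies the sister chromatid to mend a break, 8 of 11 genes were higher in Pon2-/- HSCs (median log2 fold change 0.25), and none had an edgeR p below 0.05. The break sensor formed by Mre11a, Rad50 and Nbn was expressed in all samples. Rad50, the ATPase of this complex, was steady, with 106.6 to 172.6 CPM in WT mice and 95.7 to 170.9 CPM in Pon2-/- samples and a log2 fold change of 0.05 (standard error 0.19). Nbn, the subunit that binds Atm, had the highest level per length of the pathway, with 36.01 ± 18.2 CPM per kb in WT and 42.7 ± 14.2 CPM per kb in Pon2-/- HSCs. Mre11a, the nuclease, ranged from 22.1 to 63.7 CPM in WT mice and from 3.05 to 114.5 CPM in Pon2-/- samples, of which 3 lay above and 2 below all WT samples.

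Brca1, Brca2, Palb2 and Bard1 encode proteins that act together after the broken ends have been trimmed. Brca1 and Brca2 had log2 fold changes of 0.35 and 0.25, both with standard errors above 0.5. Palb2, which links Brca1 to Brca2, was below the lowest WT sample in 5 of 6 Pon2-/- samples and above the highest in the other one. It had 59.3, 31.6, 27.4, 43.6, 32.0 and 57.5 CPM in WT replicates 1 to 6 and 5.08, 26.6, 22.1, 16.8, 4.67 and 70.8 CPM in Pon2-/- replicates 1 to 6. Its log2 fold change was -0.78 (standard error 0.62, edgeR p = 0.229, exact permutation p = 0.0693). Palb2 was chosen for this description after its values were seen. Bard1, the partner of Brca1, had the lowest level per length of the pathway in the mean of all 12 samples (2.17 ± 2.49 CPM per kb in WT and 1.89 ± 1.26 CPM per kb in Pon2-/- HSCs). In WT HSCs alone, Xrcc2 was lower. Bard1 ranged from 1 count in WT replicate 2 to 494 counts in WT replicate 4.

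Rad52, which anneals DNA strands, was at 42.6 ± 36.4 CPM in WT mice and 76.0 ± 22.6 CPM in Pon2-/- HSCs (mean ± SD, n = 6 per genotype), with a log2 fold change of 0.83 (edgeR p = 0.135, exact permutation p = 0.0714). In WT, 3 samples lay below 20 CPM, whereas all Pon2-/- samples lay above 38 CPM. Rad54l, a DNA translocase, had a log2 fold change of 0.34. Xrcc3 had one of -0.24, whereas Xrcc2 had one of 1.25 with a standard error of 1.54, and of 0.46 without Pon2-/- replicate 1. Xrcc2 had 0, 0, 242, 228, 290 and 250 counts in WT and 1328, 506, 312, 409, 117 and 0 counts in Pon2-/- replicates 1 to 6. It was thus either absent from the counts or present with over 100 counts.

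End joining genes, whose products rejoin broken ends directly, did not pass the test, with log2 fold changes between -0.41 (Prkdc) and 0.23 (Xrcc4). Xrcc6, which encodes Ku70, had the highest level per length of the pathway, with 40.0 ± 9.53 CPM per kb in WT and 43.6 ± 23.3 CPM per kb in Pon2-/- HSCs. Xrcc5, which encodes Ku80, had 47.2 to 88.0 CPM in WT samples, and 1.61 to 136 CPM in Pon2-/- samples. The SD of Xrcc5 was 14.5 CPM in WT mice and 44.6 CPM in Pon2-/- HSCs. Prkdc, the kinase that Ku recruits, ranged from 2.22 to 137 CPM in WT mice and from 11.6 to 72.4 CPM in Pon2-/- samples. Lig4, the ligase of the pathway, had 28 counts in WT replicate 1, 13 counts in WT replicate 3 and no count in any other sample. The exact permutation test gave p = 0.455 for Lig4.

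In base excision and strand-break repair, which removes oxidised and alkylated bases, 7 of 9 genes were lower in Pon2-/- HSCs (median log2 fold change -0.24), and none had an edgeR p below 0.05. Ogg1 and Mutyh encode the glycosylases that act on 8-oxoguanine and on the adenine paired with it, the main lesion of guanine oxidation. Ogg1 had 13.9 ± 6.78 CPM in WT mice and 10.2 ± 8.76 CPM in Pon2-/- HSCs (log2 fold change -0.45, standard error 0.80). Mutyh had 0, 394, 964, 993, 288 and 387 counts in WT and 0, 773, 315, 0, 364 and 614 counts in Pon2-/- replicates 1 to 6, so that it was without counts in samples of both genotypes. Its log2 fold change was -0.79 (standard error 1.47).

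Apex1, Lig1, Parp1 and Parp2 were among the least variable repair genes. Apex1 had 126.2 ± 31.9 CPM per kb in WT and 126.1 ± 29.9 CPM per kb in Pon2-/- HSCs, although only 38.3% of its exon bases are free of overlap with Pip4p1 on the other strand. Lig1 and Parp1, the sensor of single-strand breaks, had log2 fold changes of 0.06 (standard error 0.23) and 0.08 (standard error 0.21). Parp2, the second enzyme of this kind, had 174 ± 50.6 CPM in WT mice and 137 ± 39.6 CPM in Pon2-/- HSCs (log2 fold change -0.35, standard error 0.25, exact permutation p = 0.216). Polb, the polymerase that fills the gap, and Xrcc1, the scaffold, had log2 fold changes of -0.25 and -0.24. Lig3, the ligase bound to Xrcc1, had the lowest level per length of the pathway in the mean of all 12 samples (5.92 CPM per kb, Ogg1 6.16), although Ogg1 was lower in Pon2-/- HSCs (5.645 for Lig3, 5.195 for Ogg1). Lig3 had no count in Pon2-/- replicate 1, where Xrcc1 was also lowest, with 8.73 CPM.

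The 4 listed genes of the Fanconi anaemia pathway, which unhooks DNA crosslinks, had the lowest median level and the largest median spread of the 8 pathways. Their median coefficient of variation was 91.97% over all samples. Fanca and Fancc belong to the core complex that ubiquitinates Fancd2 and Fanci. Fancc had the highest level per length, with 6.47 ± 5.21 CPM per kb in WT and 6.74 ± 4.05 CPM per kb in Pon2-/- HSCs. Fanca had the lowest, with 1.27 ± 1.26 and 0.624 ± 0.470 CPM per kb, and a log2 fold change of -1.03 with a standard error of 1.29. Fanci had 21, 6, 0, 293, 15 and 197 counts in WT and 0, 241, 0, 0, 191 and 11 counts in Pon2-/- replicates 1 to 6. High and low samples of Fanci were found in both genotypes, and its log2 fold change was -0.90 (standard error 1.83).

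Mismatch repair was represented by Msh6, which recognises the mismatch, and Pms2, which nicks the new strand. Msh6 had a log2 fold change of 0.47 (standard error 0.40) and Pms2 one of -0.49 (standard error 0.64).

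In nucleotide excision repair, which cuts out bulky lesions, 3 of 4 genes were higher in Pon2-/- HSCs, and Ercc1 was the one with a p below 0.05. Ercc1, the partner of the nuclease Ercc4, had 684, 686, 860, 46, 862 and 713 counts in WT and 1388, 1595, 794, 1505, 1576 and 1381 counts in Pon2-/- replicates 1 to 6. In CPM, WT samples ranged from 3.601 to 62.6 and Pon2-/- samples from 45.2 to 104, and 5 of 6 Pon2-/- samples lay above every WT sample. The log2 fold change was 1.12 (standard error 0.48, edgeR p = 0.0351, adjusted p = 1.0, two-sided exact permutation p = 0.00433). Ercc1 shares 3.41% of its exon bases with Cd3eap on the other strand, which had a log2 fold change of 0.30. Xpa, which verifies the damage, had 30.6 ± 17.3 CPM in WT mice and 42.7 ± 16.3 CPM in Pon2-/- HSCs (log2 fold change 0.48, exact permutation p = 0.227). In the mean of all 12 samples it had the highest level per length of the pathway (20.2 CPM per kb, Ercc1 18.5), whereas in Pon2-/- HSCs Ercc1 was higher (25.35 against 23.5 CPM per kb). Xpc, the lesion sensor, had a log2 fold change of -0.05. Ercc2, the helicase of the transcription factor TFIIH, had the lowest level, with 0, 0, 42, 21, 33 and 0 counts in WT and 63, 0, 0, 160, 10 and 31 counts in Pon2-/- replicates 1 to 6. Only 57.3% of its exon bases are free of overlap with other genes, since Gm26852 (24.6%) and Klc3 (17.8%) lie on the other strand. Klc3 had 0 CPM in all WT samples and 4.47 ± 5.35 CPM in Pon2-/- HSCs (mean ± SD).

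With the exact permutation test, 2 of the 47 tested genes (Trp53 and Ercc1) and 3 of all 49 (with Recql4) had a p below 0.05, against the 5.87% of all tested genes given above. In none of the 47 did all samples of one genotype lie above all samples of the other, compared with 0.633% of all genes tested.

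The repair genes varied between mice about as much as other genes of their level. Lower expressed genes had a larger coefficient of variation, with a Spearman correlation across genes of -0.80 over the 47 repair genes and of -0.75 over all 11848 genes tested. Genes are not independent replicates, since all come from the same 12 libraries, and the values are given as a description. Between 29.0 and 73.0 CPM, the middle range of the repair genes, the median coefficient of variation was 54.4% for 23 repair genes and 52.6% for 3265 genes. Patterns such as those of Xrcc2 and Mutyh, with no count in some mice and over 100 counts in others, were found in both genotypes.

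**Figure D5:**
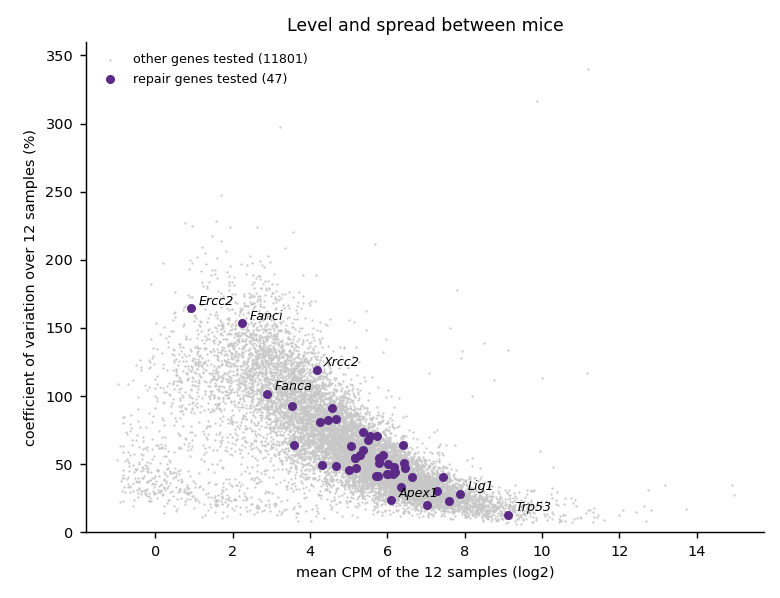
Coefficient of variation over the 12 samples in percent (y axis) against the mean CPM on a log2 scale (x axis) for the 47 repair genes tested (purple) and all other genes tested (grey). The repair genes follow the grey cloud, from Ercc2 (164%) and Fanci (153%) at low level to Trp53 (12.7%) at high level.

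Other genes of the same pathways were taken from a second list. Of 114 genes found, 108 were tested. None had an edgeR p below 0.05 or passed both thresholds (3.13% and 0.203% of all genes tested), and their median log2 fold change was -0.05. Of these genes, 76.3% were detected in all samples. With DESeq2, 1 of the 114 was called, Polm, a polymerase of end joining. It had 1349 counts in WT samples, all in 2 of them, and no count in Pon2-/- samples, and it did not pass the filter of the edgeR fit. An exact permutation p below 0.05 was found for 5 of the 108 (Brip1, Eme1, Fancg, Ube2t and Fan1), all lower in Pon2-/- HSCs, a share near the 5.87% of all genes tested. These 5 genes were named after their values were seen.

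Proliferation genes were detected in nearly all samples, and 1 of 28, Mcm5, a subunit of the replicative helicase, had an edgeR p below 0.05, near the 3.13% of all genes tested (167 ± 42.6 CPM in WT, 242 ± 73.7 CPM in Pon2-/-, mean ± SD, n = 6 per genotype, edgeR p = 0.0287, exact permutation p = 0.0476). Their summed level was 2984 to 4845 CPM in WT mice and 3386 to 5213 CPM in Pon2-/- samples. Of the genes on the other lists, Hbb-bt, a globin gene of the erythroid markers, was the only one whose genotypes did not overlap (0.633% of all genes tested). It was at 25.5 ± 13.2 CPM in WT mice and 0.193 ± 0.449 CPM in Pon2-/- HSCs (edgeR log2 fold change -7.04, adjusted p = 0.265, DESeq2 adjusted p = 1.03e-06). Of the 10 erythroid markers, 3 had a higher mean CPM in Pon2-/- HSCs, 5 a lower one and 2 no count in any sample. The median log2 fold change of the 7 tested was -0.03. Their summed level overlapped, with 1885 to 2992 CPM in WT mice and 2012 to 2599 CPM in Pon2-/- samples. Among the other erythroid markers, Car2, a carbonic anhydrase also expressed in other blood cells, had 2256 ± 399.8 CPM in WT mice and 2212 ± 228 CPM in Pon2-/- HSCs.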

How the data were processed

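RNA had been amplified with Smart-seq2 from wells of 10 sorted cells and sequenced. Per the study's methods, the authors trimmed the reads with Trimmomatic 0.36, checked them with FastQC 0.11.5 and aligned them with STAR 2.5.3a to GRCm38.p5 with the GENCODE M12 annotation, and the deposited values are whole-number counts per gene and mouse. How the wells of a mouse were joined is not given in the sources used here. Smart-seq2 keeps no strand, so reads on exons of overlapping genes cannot be assigned by strand. No molecular identifiers were used, and intervals and floors cover counting error only. The deposited counts hold 49585 genes, of which 49326 were named through GENCODE M21, and 1 line per file that names no gene was left out.

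Counts were analysed in R 4.3.3 with edgeR 4.0.16 (TMM, filterByExpr, quasi-likelihood test, genotype as the only term). Genes were called at an FDR below 0.05 (Benjamini-Hochberg over all genes tested) and a fold change above 2. DESeq2 1.42.0, limma 3.58.1 (voom), other filters and scalings, the replicate number as a block and leaving out each sample served as alternatives. Single genes were tested with exact permutation tests of mean log2 CPM with a prior count of 2 (Python 3.11.15, scipy 1.17.1). Figures were drawn with matplotlib 3.10.9. On simulated counts of 11848 genes for WT against Pon2-/-, a 4-fold change was recovered by edgeR in 37.3% of the genes given it, a 16-fold change in 67.2% and a 64-fold change in 86.4%.

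The repair genes and all other lists were chosen with earlier results of these data known. All 49 repair genes are described by pathway. Values per sample are given for the RecQ helicases, for genes with an edgeR or permutation p below 0.05 and for genes without a count in at least 1 sample of each genotype, and levels for the highest and lowest gene of each pathway of 4 or more genes. Of the other lists, 2 of 230 genes were not found by symbol. P-values set the genotype difference against the spread between samples, 1 per mouse. In that spread, differences between mice and the sampling and amplification of about 80 cells cannot be told apart. Some genes of the lists are not reported here.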

Additional observations from a re-analysis of the deposited data

Results flagged for a closer look

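In 12 of 119 groups of 6 samples examined, 1 sample stood apart from the other 5 by Dixon's criterion. About 1 in 20 groups of normally distributed values would meet it. The CPM values need not be so distributed, and apart from Pon2 every flagged group was flagged by its highest sample. The number of flagged groups can therefore not be set against that rate. Of the RecQ helicases, Recql reached 47.2 CPM in Pon2-/- replicate 4 (next sample 18.3), and Recql4 19.8 CPM (next 3.95) and Blm 89.1 CPM (next 43.5) in Pon2-/- replicate 5. Pon2-/- replicate 5 also had the lowest level of Pon2, with 1.16 CPM, whereas the other Pon2-/- samples had 28.4 CPM or more. In homologous recombination, Palb2 was at 70.8 CPM in Pon2-/- replicate 6 (next 26.6), Bard1 at 38.7 CPM in WT replicate 4 (next 11.7) and Mre11a at 63.7 CPM in WT replicate 3 (next 37.6). Rad54l was at 104 CPM in WT replicate 2 (next 58.6) and Xrcc2 at 79.4 CPM in Pon2-/- replicate 1 (next 28.4). In the other pathways, Lig1 was at 344 CPM in Pon2-/- replicate 6 (next 241), Fancc at 112 CPM in WT replicate 6 (next 46.6) and Ercc2 at 11.1 CPM in Pon2-/- replicate 4 (next 3.77). Their causes were not tested.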

How the results depend on the processing

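With about 80 cells per mouse and a biological coefficient of variation of 99.2% in the edgeR fit, only large changes could be detected. The number of genes called depended on the tool: 24 with edgeR, 8 without the filter on low counts, 305 with DESeq2, 950 with DESeq2 without its Cook cutoff and 5 with the replicate block. Repair genes called were 0 with edgeR and 1 (Recql4) with DESeq2, with or without the Cook cutoff. Trp53 passed the FDR threshold, but not that of the fold change, in DESeq2 without the Cook cutoff (adjusted p = 0.0323). Repair genes with an unadjusted p below 0.05 were 2 with edgeR, 4 without the filter (Trp53, Ercc1, Recql4, Lig4), 4 with limma voom (Trp53, Ercc1, Rad52, Palb2), 1 with the replicate block (Trp53), and 1 to 3 when single samples were left out. Genes without overlap were 0, 1 with DESeq2 size factors (Trp53), and 0 to 1 when single samples were left out (Trp53, Ercc1 or Palb2). Repair genes detected in no sample of a genotype were 1, and 2 when at least 5 or at least 10 counts were required. The sign turned for Recql with limma voom (0.12) and for Blm with limma voom (0.26) and the replicate block (0.10). When single samples were left out, it turned also for Recql (range -0.73 to 0.15; 0.15, 0.09 and 0.05 without WT replicates 1 and 2 and Pon2-/- replicate 2), Blm (-0.53 to 0.11; 0.11 and 0.02 without WT replicates 1 and 5), Wrn (-0.22 to 0.048; 0.02 and 0.048 without WT replicates 2 and 6) and Fanci (-1.70 to 0.21; 0.21 without WT replicate 4). The causes were not tested. Over all alternatives the log2 fold change of Trp53 stayed between 0.21 and 0.31 and that of Ercc1 between 0.88 and 1.38, with exact permutation p-values of 0.00216 to 0.0130 and 0.00216 to 0.0152. For Recql4 these p-values were 0.00216 to 0.0333, including the setting without Pon2-/- replicates 4 and 5, which was chosen after seeing the data. Same-numbered WT and Pon2-/- samples correlated by 0.000932 to 0.0430, and only replicate 2 correlated best with its own number. The highest correlation of any WT sample with a Pon2-/- sample was 0.0630. With correlations this low, the check cannot tell whether same-numbered samples share a batch.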
